A study of Homo sapiens with 6 samples.

Results

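The genes described here are 9 genes tied to the oxidative stress factor NRF2: KEAP1, HMOX1, GCLC, GCLM, FTL, FTH1, CBR1, AKR1C1 and AKR1B1. They were taken by exact symbol, without pseudogenes, from the 18234 rows of the deposited miR-CLIP table, and all 9 were found. The series asked which RNAs are held by miR-146a in IMR90 cells, a line of normal human lung fibroblasts, made senescent by the oncogenic RAS form RASV12. In miR-CLIP, RNA is recovered with an antibody to AGO2, the protein that carries microRNAs, and RNA crosslinked to a microRNA mimic by psoralen is then purified through the mimic's biotin. Both groups, 3 Input and 3 miR-CLIP libraries, came from cells given RASV12 by retrovirus and the miR-146a mimic with psoralen and biotin, so neither RASV12 nor the mimic differs between them. Per the labels, cells were selected with puromycin at 1.5 ug/ml for 3 days, seeded on day 10 and transfected 24 hours later. The labels list the AGO2 antibody for the miR-CLIP libraries alone but describe 1 extraction for all samples, so the step at which Input RNA was set aside is unknown. Cells without RASV12 or with an unmodified mimic were not analysed here. The table names the libraries by the letters A, B and C.

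NRF2 is a transcription factor that KEAP1, an adaptor of the CUL3 ubiquitin ligase, holds at a low level until oxidants or electrophiles modify KEAP1. NRF2 then binds antioxidant response elements and raises genes for glutathione synthesis, heme breakdown, iron storage and the reduction of reactive carbonyls. In fibroblasts such genes buffer the oxidants that oncogenic RAS and senescence bring. The best known target of miR-146a is IRAK1, which relays signals from the interleukin-1 receptor.

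The sequences of the microRNA and of its known target are shown because microRNAs mostly pair with their targets through the seed. The mature 5p arm of miR-146a (RefSeq, GRCh38.p14, chr5:160485372-160485393, plus strand) has 22 bases, with the seed, bases 2 to 8, in capitals. The labels do not name the arm of the mimic. The 3′ UTR of IRAK1 (GENCODE release 29, GRCh38, chromosome X, minus strand) holds 2 matches to the seed followed by A, shown in capitals, at chrX:154011808-154011837 and chrX:154011792-154011821. The second window overlaps the first. In normalised read counts, IRAK1 was at 1420 ± 303 with Input RNA and 2913 ± 1142 after miR-CLIP (SD, n = 3), with miR-CLIP library B, at 1599, inside the Input range.
hsa-miR-146a-5p: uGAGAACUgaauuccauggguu
IRAK1 first site: cccaaatccggaagtcaaAGTTCTCAtggt
IRAK1 second site: aaagttctcatggtcagaAGTTCTCAtggt

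None of the 9 genes had such a match. The 6 letters GTTCTC, the shortest seed match, occurred 0 times in the annotated 3′ UTR of the main transcript of each, read on the mRNA strand. The 7 letters AGTTCTC also occurred 0 times in the coding part and 5′ UTR of those transcripts. Among 6344 tested protein-coding genes, 29.1% had GTTCTC and 10.5% had AGTTCTC in the 3′ UTR. Most of the 9 UTRs are short. CBR1 has 284 bases, and of genes with a UTR between 0.8 and 1.25 times as long, 8.99% had GTTCTC. GCLM has 3785 bases, where 62.6% of genes of like UTR length had it, and GCLC has 1415, where 28.3% did. The AKR1C1 UTR is annotated with 5541 bases, where 72.3% did. No match says only that these letters are not in these windows.

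Promoter sequence was searched for the antioxidant response element, whose core is written TGACNNNGC, on both strands of the 300 bases from 250 before to 50 after each start in RefSeq (GRCh38.p14). Promoters were matched for 7 of the 9 genes, with 9 starts among them, and HMOX1 and FTH1 were not matched. The core was found for GCLM, KEAP1 and CBR1, or 3 of 7 genes and 3 of their 9 promoters, and in 13.3% of all 35116 promoters. Elements outside these 300 bases were not searched. The looser form TGANNNNGC, which contains the core, was found for 4 of 7 genes, AKR1C1 being the fourth. It was in 4 of the 9 promoters and in 41.8% of all promoters. KEAP1 held a second core match, TGACACGGC at position -54 from the start site, which is not shown. GCLM and KEAP1 shared the same 9 letters, TGACTAAGC, which 36 of the 35116 promoters hold (0.1025%). These letters were taken from the matches themselves, and any single spelling of the core is rarer than the core. The share is therefore no measure of enrichment. The windows are shown on the gene's own strand with the match in capitals, which here reads as the reverse complement. They lie at chr1:93909446-93909474 (GCLM, minus strand, match at position -34 from the start site), chr19:10502784-10502812 (KEAP1, minus strand, at -31) and chr21:36069855-36069883 (CBR1, plus strand, at -159).
GCLM: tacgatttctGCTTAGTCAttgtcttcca
KEAP1: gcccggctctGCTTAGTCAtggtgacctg
CBR1: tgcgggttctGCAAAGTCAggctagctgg
A match is a description of these letters and not a measured site, since the libraries hold no measure of binding to DNA.

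Values below are normalised read counts: the authors scaled the gene reads of each library by a single size factor. Where 3 values stand together, they are those of libraries A, B and C in that order. The rows held between 6847837 and 12771968 reads per library. miR-CLIP library B stood apart from A and C and lay near the Input libraries for many genes, so the log2 differences of the 9 genes and of the genes named from the pathway lists are also given without it. Values without B rest on miR-CLIP A and C alone. Where their SE is smaller, the spread that B brought has been left out, and the SE is no sign of greater precision. Transcript length went with the libraries: for tested protein-coding genes of 213 to 2019 nucleotides, the median log2 differences of libraries A, B and C after miR-CLIP from the Input mean were -0.83, 0.46 and -0.91. For those of 4964 nucleotides or more they were 0.55, -0.26 and 0.35. FTL, FTH1, HMOX1, CBR1 and AKR1B1 fall in the shortest of these 4 bins, KEAP1 in the second, GCLC and GCLM in the third and AKR1C1 in the longest. The 10 fibroblast markers in the table, of 14 listed, summed to between 190942 and 276333 in Input and between 208356 and 256976 in miR-CLIP. The 9 epithelial markers in the table summed to between 541 and 2277 over all 6 libraries, the 8 endothelial ones to between 325 and 627 with EMCN at 0 throughout, and the 9 blood cell ones to between 9.54 and 41.3 with HBA1 at 0 throughout. Fewer cells of a type and less RNA per cell cannot be told apart in such bulk libraries.

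Read per kilobase of main transcript, ferritin led the set in Input. FTL, the ferritin light chain, which helps iron cores form, had 32987 ± 1511 normalised read counts per kilobase (SD, n = 3). FTH1, the ferritin heavy chain, which oxidises iron for storage, had 7797 ± 529, and AKR1B1, the aldose reductase, had 5290 ± 839. These 3 levels did not overlap with each other or with the rest. CBR1, KEAP1, GCLC, HMOX1 and GCLM followed at 430 ± 41.5, 429 ± 45.1, 372 ± 89.2, 287 ± 78.4 and 197 ± 36.0 per kilobase, and each of these overlapped the next in order. AKR1C1, which reduces progesterone and aldehydes, was lowest at 12.5 ± 3.95 per kilobase, over an annotated transcript of 6705 nucleotides. With the length of all annotated exons joined, a reading added after the data were seen, FTL, FTH1 and AKR1B1 kept the first 3 places and AKR1C1 the last, while the 5 genes between them changed order. In miR-CLIP, AKR1B1 came before FTH1, at 5789 ± 4161 and 4707 ± 5776 per kilobase, with ranges that overlap. CBR1 was next, at 872 ± 188, with a range that overlaps that of HMOX1, at 825 ± 685.

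**Figure D1:**
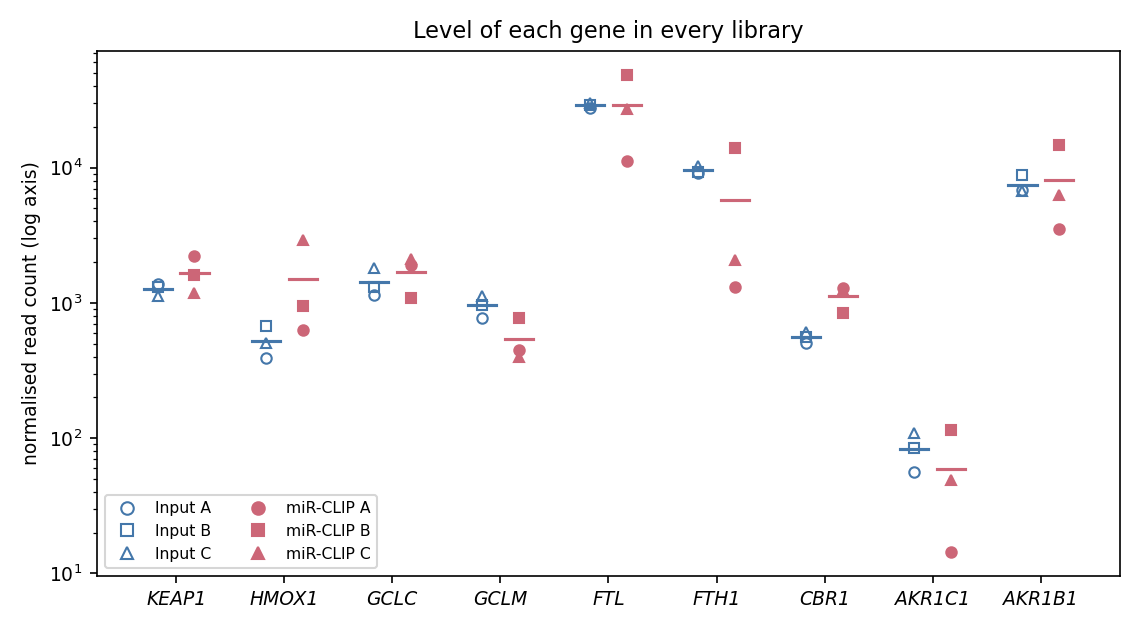
Normalised read counts (log axis) of the 9 genes in each Input library (open blue) and miR-CLIP library (filled red), with a bar at the mean of each group and 1 marker shape per letter. CBR1 lies higher in all 3 miR-CLIP libraries and GCLM lower in all 3, and in the other 7 genes the groups overlap.

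The genes were selected on their role in oxidative stress with the normalised read counts of both groups known, and CBR1 was chosen by its higher values in every miR-CLIP library. The differences below are therefore descriptions with no test. The fit was made with limma over all 8506 genes kept, of which all 9 were part, and gives log2 differences as miR-CLIP minus Input on log2(value + 1), with their SE. No call by adjusted p is given for the 9 genes. The groups did not overlap for CBR1, higher, and GCLM, lower, with a background of 5.64% of genes higher and 7.34% lower. Of the 9 log2 differences, 4 were positive and 5 negative, with a median of -0.11, against -0.13 over all tested genes. Without miR-CLIP B the medians were -0.66 and -0.22, not corrected for transcript length. With a correction for transcript length and all 6 libraries, 6 of the 9 were positive, and the median over all tested genes was 0.01.

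KEAP1 (chr19:10486120-10503741, minus strand, GRCh38 as for all genes below) had 1367, 1320 and 1116 normalised read counts with Input RNA and 2206, 1614 and 1187 after miR-CLIP. After miR-CLIP, libraries A and B lay above all Input libraries, and C lay within their range. Its log2 difference came to 0.36 ± 0.29 (SE, n = 3 against 3), and it was 0.36 without miR-CLIP B, 0.58 without miR-CLIP C and 0.13 without miR-CLIP A.

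HMOX1 (chr22:35380361-35394214, plus strand) encodes heme oxygenase 1, which opens heme to biliverdin, carbon monoxide and iron. It had 388, 673 and 507 with Input RNA and 633, 941 and 2933 after miR-CLIP. Library C alone was far above Input, B was above it, and A lay within the Input range. miR-CLIP minus Input was, on the log2 scale, 1.24 ± 0.53, and it was 1.42 without miR-CLIP B and 0.60 without miR-CLIP C. Its constitutive relative HMOX2 had 1270 ± 186 in Input and 1236 ± 599 in miR-CLIP, so the ratio of HMOX1 to HMOX2 was 0.367, 0.481 and 0.374 with Input RNA and 0.783, 0.490 and 2.99 after miR-CLIP. In B this ratio was barely above the highest Input library.

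Glutathione synthesis begins with glutamate-cysteine ligase, made of the catalytic subunit GCLC and the modifier GCLM, which lets the enzyme work at low glutamate. GCLC (chr6:53497341-53616970, minus strand, coordinates of the table, which differ from those of GENCODE release 29) had 1139, 1316 and 1796 with Input RNA and 1891, 1077 and 2094 after miR-CLIP. A and C lay just above all Input libraries and B below them. The log2 difference was 0.22 ± 0.33, and 0.52 without miR-CLIP B, 0.04 without miR-CLIP C, 0.11 without miR-CLIP A, 0.08 without Input A and 0.41 without Input C. Exons of the noncoding genes AL033397.1, on the same strand, and AL033397.2, on the other strand, overlap those of GCLC in GENCODE release 29. Values of these noncoding genes were not used here, so the share of their reads in GCLC is unknown.

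GCLM (chr1:93885205-93909456, minus strand) had 779, 965 and 1128 with Input RNA and 449, 769 and 401 after miR-CLIP. All miR-CLIP libraries were lower than all Input libraries, B by a small margin. Its log2 difference came to -0.87 ± 0.32, and -1.15 ± 0.21 without miR-CLIP B. GCLM has a longer transcript (4857 nucleotides) than GCLC (3813), and both are in the same length bin, where the median log2 difference was 0.02. The ratio of GCLC to GCLM was 1.46, 1.36 and 1.59 with Input RNA and 4.21, 1.40 and 5.22 after miR-CLIP. The subunits thus had a like ratio in all Input libraries and in miR-CLIP B, and a higher one in miR-CLIP A and C.

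**Figure D2:**
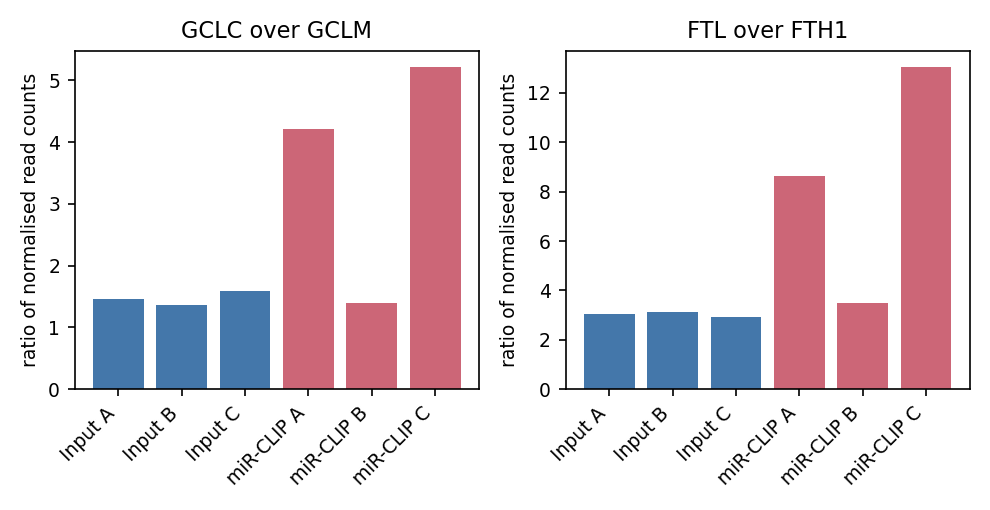
Ratio of normalised read counts of GCLC over GCLM (left) and FTL over FTH1 (right) in each library, with bars from 0, Input in blue and miR-CLIP in red. In both panels miR-CLIP A and C stand above the 3 Input libraries, and miR-CLIP B lies at 1.40 and 3.48, within or close to the Input values.

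Ferritin stores iron in a shell of both chains. FTL (chr19:48965301-48966878, plus strand) had 27544, 29171 and 30174 with Input RNA and 11255, 48642 and 27134 after miR-CLIP. The Input values were close together, A was far below them, C just below and B far above. miR-CLIP minus Input was, on the log2 scale, -0.24 ± 0.50, and it changed sign to 0.33 without miR-CLIP A and to 0.28 with a correction for transcript length. Without miR-CLIP B it was -0.73.

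FTH1 (chr11:61959718-61967660, minus strand) had 9091, 9339 and 10319 with Input RNA and 1304, 13970 and 2079 after miR-CLIP. A and C lay far below every Input library, and B lay above every one. The log2 difference was -1.51 ± 0.75, and -2.54 ± 0.22 without miR-CLIP B. It was -0.83 without miR-CLIP A, and -0.77 with edgeR and -0.74 with DESeq2 on the recovered reads. FTH1 shares exon positions with BEST1, a chloride channel gene on the other strand, and with the strand setting unknown their reads cannot be told apart. BEST1 had 422, 331 and 400 with Input RNA and 37.2, 406 and 153 after miR-CLIP.

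The ratio of FTL to FTH1 was 3.03, 3.12 and 2.92 with Input RNA and 8.63, 3.48 and 13.05 after miR-CLIP. It was higher in all miR-CLIP libraries than in all Input libraries, with B closest. Both chains have many processed pseudogenes, so part of their reads is uncertain. The 17 FTH1 pseudogenes in the table held between 0.842% and 1.36% of the summed values of FTH1 and its pseudogenes in each library, and the 4 FTL pseudogenes between 0.388% and 0.846% of those of FTL and its own.

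CBR1 (chr21:36069941-36073166, plus strand) encodes a carbonyl reductase that uses NADPH to reduce quinones, prostaglandins and lipid aldehydes. It had 501, 560 and 608 with Input RNA and 1282, 847 and 1252 after miR-CLIP. All miR-CLIP libraries were above all Input libraries, with B in between. Its log2 difference came to 1.00 ± 0.27, and 1.19 ± 0.17 without miR-CLIP B, from A and C alone. The authors' deposited table gives it a fold change of 2.03 with an adjusted p of 1.0. The authors' fold changes, as ratios, were 1.32 for KEAP1, 2.88 for HMOX1, 1.19 for GCLC and 0.56 for GCLM. They were 1.00 for FTL, 0.60 for FTH1, 0.71 for AKR1C1 and 1.09 for AKR1B1. The median of the length bin of CBR1 was negative, at -0.43. With the correction for transcript length the log2 difference of CBR1 was 1.40. An exon of AP000688.1, a noncoding gene on the other strand, overlaps CBR1. That gene had at most 24.8 in any library. The neighbouring reductase CBR3 had 31.1 ± 6.91 in Input and 44.5 ± 3.60 in miR-CLIP.

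AKR1C1 (chr10:4963253-4983283, plus strand), an aldo-keto reductase, had 56.3, 84.8 and 109 with Input RNA and 14.5, 114 and 48.8 after miR-CLIP. A and C were below every Input library and B above every one. miR-CLIP minus Input was, on the log2 scale, -0.87 ± 0.71, and it was -1.56 without miR-CLIP B, -0.11 without miR-CLIP A, -0.53 with edgeR and -0.51 with DESeq2. AKR1C1 has the near-identical copy AKR1C2, and the authors' counting could split reads between them. AKR1C2 had 7.96, 22.5 and 15.6 with Input RNA and 1.03, 40.7 and 25.01 after miR-CLIP.

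AKR1B1 (chr7:134442350-134459284, minus strand), which turns glucose into sorbitol and clears lipid aldehydes, had 6834, 8817 and 6712 with Input RNA and 3487, 14736 and 6249 after miR-CLIP. A and C were below all Input libraries, C by a small margin, and B was above all of them. The log2 difference was -0.11 ± 0.48, and it was positive with edgeR (0.09), with DESeq2 (0.12), with the length correction (0.26), without Input B (0.02) and without miR-CLIP A (0.38). Without miR-CLIP B it was -0.66, and without miR-CLIP C -0.04. Its relative AKR1B10 had 8.36 ± 1.25 in Input and 10.4 ± 5.08 in miR-CLIP.

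FTL, FTH1, AKR1C1 and AKR1B1 thus had one order of libraries, with miR-CLIP A lowest, then miR-CLIP C, then the Input libraries and miR-CLIP B highest. In CBR1, GCLM and HMOX1, or 3 of 9 genes, all miR-CLIP libraries shared a side of the Input mean. In FTL, FTH1, GCLC, AKR1C1 and AKR1B1 library B was on the other side from A and C, and in KEAP1 library C was, by -0.09. In 7 of the 9 genes, miR-CLIP B was above the highest Input library. How many of all tested genes show these orders or sides was not counted, so they are not shown to be particular to the set. In the shortest length bin, which holds FTL, FTH1, HMOX1, CBR1 and AKR1B1, the medians of A, B and C were -0.83, 0.46 and -0.91. In the longest bin, which holds AKR1C1, they were 0.55, -0.26 and 0.35. The part of transcript length in these orders was not tested beyond the correction given.

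**Figure D3:**
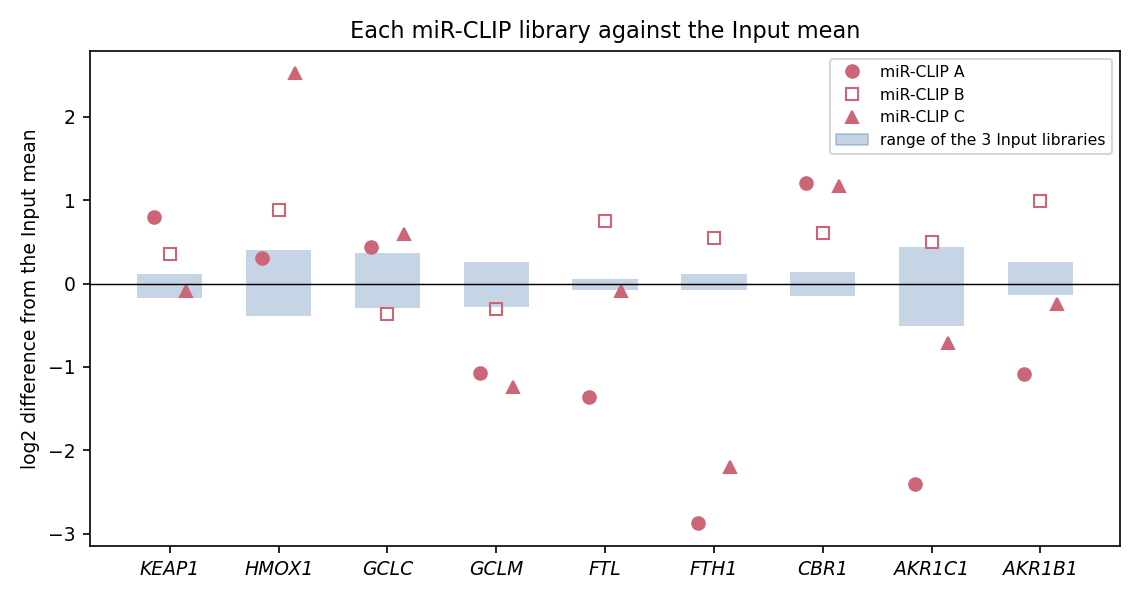
Log2 difference of each miR-CLIP library from the mean of the 3 Input libraries (symbols, with B open), with the range of the Input libraries as a band. CBR1 is the gene whose 3 symbols all lie above the band, GCLM the one whose 3 symbols all lie below it, and in FTH1 the symbols run from -2.87 in A to 0.55 in B.

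**Figure D4:**
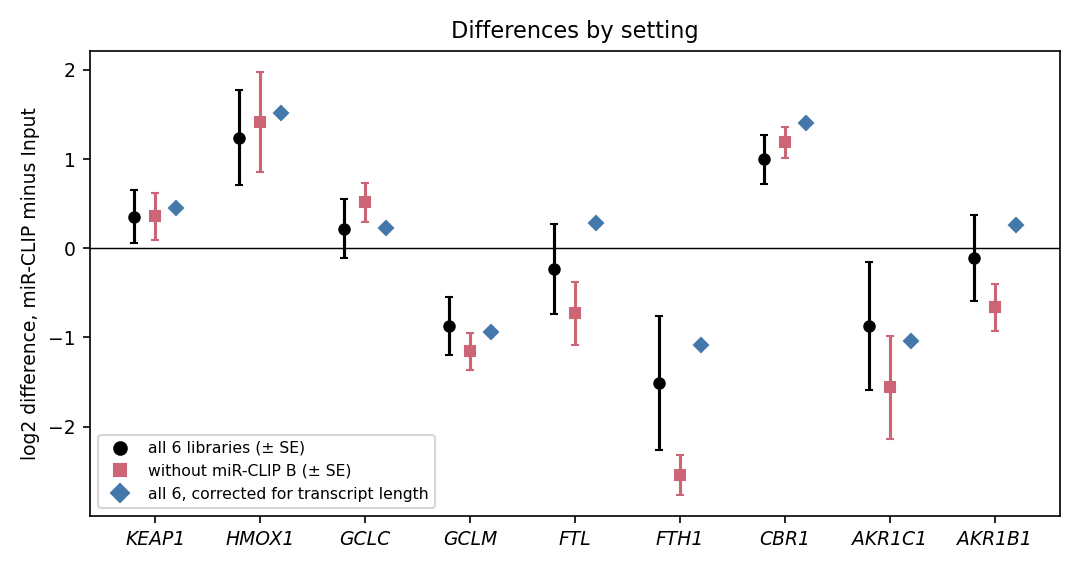
Log2 difference, miR-CLIP minus Input, with all 6 libraries (black, ± SE), without miR-CLIP B (red, ± SE) and with all 6 after correction for transcript length (blue, no error shown). CBR1 goes from 1.00 to 1.19 and 1.40, FTH1 from -1.51 to -2.54 and -1.09, and FTL and AKR1B1 change sign with the correction.

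The genes whose values over the 6 libraries were most like those of CBR1, out of 4340 tested genes with a mean of at least 100, were COPRS, CDK5RAP1, COPS7B, CD2BP2 and CENPB. Pearson r of log2 values with CBR1 was 0.981, 0.981, 0.979, 0.978 and 0.978 in that order. These correlations rest on 6 libraries of 2 groups that the genes share, and are a description. Their log2 differences were 1.12 ± 0.32 for COPRS, a partner of the arginine methyltransferase PRMT5, 0.68 ± 0.26 for CDK5RAP1, 0.48 ± 0.25 for COPS7B, a subunit of the COP9 signalosome, 0.86 ± 0.27 for CD2BP2 and 0.67 ± 0.24 for CENPB, which binds centromeric DNA.

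Other genes of the pathway were read from 5 lists, of which 141 of 182 genes were in the table and 130 were tested. With all 6 libraries limma called 0 of the 130 higher and 0 lower at adjusted p 0.05, against 0.00% and 0.00% of all tested genes. At an unadjusted p under 0.05 there were 9 of the 130 and 548 of all 8506, which is a like share. edgeR and DESeq2 on the recovered reads also called 0 of the 130. They had 5 and 8 of them at an unadjusted p under 0.05, and 560 and 675 of all genes. Without miR-CLIP B, 15 of the 130 were called higher and 37 lower, against 12.6% of all genes called higher and 16.1% lower, so the higher count was near the background. The same 12.6% and 16.1% are the background of each list's count without miR-CLIP B below. Those counts were not corrected for transcript length. Over all 8506 genes, 3660 log2 differences were positive and 4846 negative, so negative ones prevailed without regard to any list. Separate cultures are not stated for the libraries of a group, so these p-values measure only the spread between libraries, which may be technical. Genes of the lists outside the table were not analysed here, and NFE2L2, which encodes NRF2 itself, is among them. All tested list genes have symbols starting with letters from A to L, so targets such as NQO1, TXNRD1 and SLC7A11 were not tested. The list counts and medians describe only this part of the pathway.

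The tested regulators of NRF2 had mostly positive differences. Of 15 tested, 13 were positive and 2 negative, with a median log2 difference of 0.40, against -0.13 over all tested genes. Without miR-CLIP B, 7 of 15 were called higher and 0 lower, against 12.6% and 16.1% of all genes. After length correction the median with all 6 libraries was 0.40, against 0.01 over all tested genes. BACH2, a repressor that competes for antioxidant response elements, was low at 20.5 ± 5.27 in Input and had 83.9 ± 37.2 in miR-CLIP, with a log2 difference of 1.90 ± 0.54, and 2.32 without miR-CLIP B. CAND1, which exchanges adaptors on cullin ligases, had 0.76 ± 0.41, and 1.25 without miR-CLIP B, with 8825, 2919 and 7322 after miR-CLIP against 3389 ± 365 in Input. CHD6, a chromatin remodeller, had 0.81 ± 0.44, and 1.26 without miR-CLIP B. In both CAND1 and CHD6, miR-CLIP B was below the Input mean and A and C above it. CUL3, the ligase scaffold on which KEAP1 works, had 0.09, and 0.26 without miR-CLIP B.

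The other NRF2 targets and glutathione enzymes that were tested had mostly negative differences, and the lists share some genes. Of 26 tested NRF2 targets, 7 were positive and 19 negative, with a median of -0.28, and -0.16 after length correction. Over all tested genes these medians were -0.13 and 0.01. Without miR-CLIP B, 0 of 26 were called higher and 8 lower, against 12.6% and 16.1% of all genes. Of 36 glutathione enzymes, 9 were positive and 27 negative, with a median of -0.62, and -0.35 after length correction. Without miR-CLIP B, 2 of 36 were called higher and 18 lower, against the same shares.

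GSR, the reductase that regenerates glutathione, is in both lists and had 1445 ± 156 in Input and 926 ± 196 in miR-CLIP, with groups that did not overlap and a log2 difference of -0.66 ± 0.26, and -0.82 without miR-CLIP B. GSTP1, a glutathione transferase, had -1.53 ± 0.84, and -2.71 without miR-CLIP B, with 357, 3745 and 284 after miR-CLIP against 2096 ± 202 in Input. EPHX1, the microsomal epoxide hydrolase, had -1.16 ± 0.55, and -1.83 without miR-CLIP B. CHAC1, which degrades glutathione, had 760 ± 112 in Input and 1685 ± 584 in miR-CLIP, with a difference of 1.10 ± 0.31, and 1.13 without miR-CLIP B. GLRX5, a mitochondrial glutaredoxin for iron-sulfur clusters, had 492 ± 42.2 and 737 ± 37.5, a difference of 0.58 ± 0.25, and 0.56 without miR-CLIP B. GSTP1 and EPHX1 were above the Input mean in miR-CLIP B and below it in A and C, while GSR, CHAC1 and GLRX5 kept one side in all 3.

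Iron and heme genes and the carbonyl and aldehyde enzymes had medians close to that of all genes. Of 27 tested iron and heme genes, 12 were positive and 15 negative, with a median of -0.12. Without miR-CLIP B, 3 of 27 were called higher and 7 lower, against 12.6% and 16.1% of all genes, so the higher count was near the background. CYBRD1, a ferric reductase, had 792 ± 92.4 in Input and 527 ± 92.5 in miR-CLIP, with a difference of -0.59 ± 0.27, and -0.57 without miR-CLIP B. CISD2, an iron-sulfur protein, had 56.8, 246 and 42.5 after miR-CLIP against 210 ± 15.6 in Input, a log2 difference of -1.31 ± 0.62, and -2.07 without miR-CLIP B. ISCU, the scaffold on which iron-sulfur clusters form, had 328, 1016 and 240.1 after miR-CLIP against 875 ± 106, a log2 difference of -1.01 ± 0.50, and -1.63 without miR-CLIP B. In both, miR-CLIP B was above every Input library and A and C were below every one. Of 40 tested carbonyl, aldo-keto and aldehyde enzymes besides the members, 17 were positive and 23 negative, with a median of -0.05. Without miR-CLIP B, 3 of 40 were called higher and 9 lower, against 12.6% and 16.1% of all genes. ADH5, which clears formaldehyde bound to glutathione, had 2441 ± 179 in Input and 3988 ± 578 in miR-CLIP, with a difference of 0.70 ± 0.24, and 0.78 without miR-CLIP B, and was higher in all 3 miR-CLIP libraries. HSD17B12 had -0.84 ± 0.37, and -1.21 without miR-CLIP B. HSD17B11 had 9.29, 39.7 and 0 after miR-CLIP against 44.6 ± 2.78 in Input. Its log2 difference of -2.60 ± 1.17, and -3.83 without miR-CLIP B, rests on the library at 0 and so on the pseudocount of 1. Every gene named from the lists had a limma adjusted p of 0.611 or higher with all 6 libraries.

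**Figure D5:**
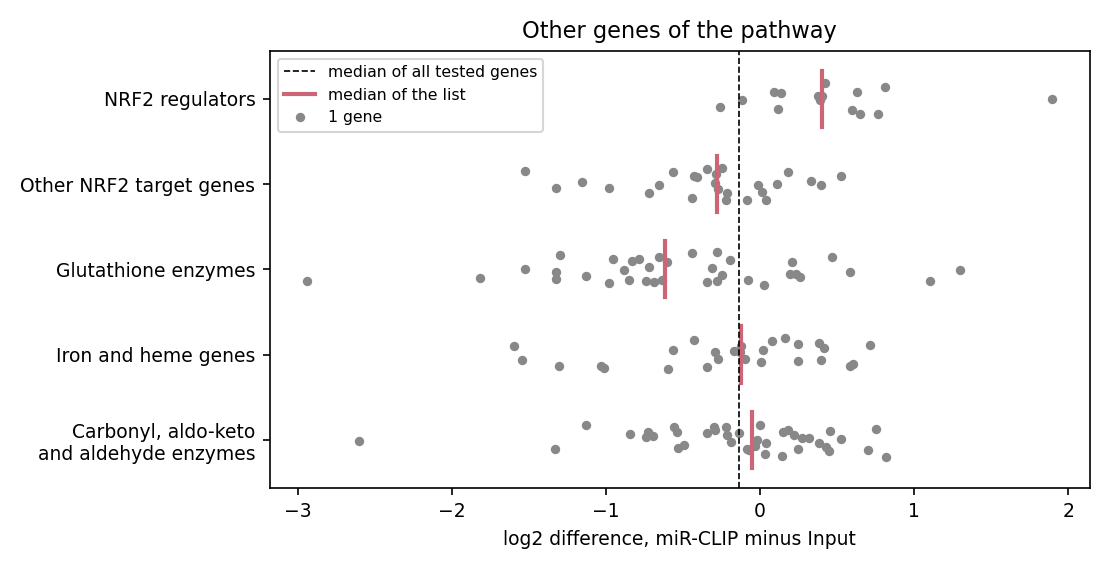
Log2 difference, miR-CLIP minus Input, of each tested gene in the 5 pathway lists (grey points, spread vertically at random), with the median of each list (red) and of all 8506 tested genes (dashed). The list medians run from -0.62 for glutathione enzymes to 0.40 for NRF2 regulators.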

How the data were processed

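The deposited table gave 1 signal value per gene and library. Within a tolerance of 1e-06, 100% of values in each of the 6 columns were whole multiples of the smallest value above 0, so the deposited signal is reads scaled by a single size factor in each library, and the reads could be recovered. Besides this, the table has the authors' fold change (a ratio) and p-values with and without adjustment, per the file headers. Tools named in the submitters' processing notes, without role or order, are STAR 2.5.1b, Trimmomatic 0.35 and DESeq2 1.22.2, with the build GRCh38. Neither the counting program nor its strand setting is stated there. Column letters do not match the labels' replicate numbers, so columns were used by group.

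The 8506 genes reaching a value of 1 in 3 or more libraries were fitted with limma 3.58.1 (R 4.3.3, trend, two-sided) on log2(value + 1), with Benjamini-Hochberg adjustment over all of them. The procedure was tested on simulated reads with the same spread for every library and no trend with transcript length. That test does not cover a library that stands apart, as miR-CLIP B does here. Lengths and UTRs came from GENCODE release 29, which holds 18143 of the 18234 gene identifiers, using the principal transcript (longest in ties). The length correction removed a lowess curve per library. edgeR 4.0.16 and DESeq2 1.42.0 were run on the recovered reads. The members and lists were chosen with earlier results of these data known. From each list without a called gene, the 3 genes with the smallest p were named, and other genes named beside them (CUL3, BEST1, HMOX2, AP000688.1) were chosen after their values were seen.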

Additional observations from a re-analysis of the deposited data

How the results depend on the processing

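The count of called genes was 0 of 8506 with all 6 libraries and stayed at 0 under both other pseudocounts, both other filters, TMM and upper-quartile factors, edgeR and the length correction, with 548 genes at an unadjusted p under 0.05 with limma and 560 with edgeR. DESeq2 called 2 genes, ATP5L and HOMER3, neither of them in the pathway, and had 675 at an unadjusted p under 0.05. Leaving out 1 library at a time gave between 0 and 2442 calls among all genes and between 0 and 52 among the pathway lists, and every call came from the fit without miR-CLIP B. The cause was not tested. A replicate block by column letter, added after seeing the data, called 0 of all genes and 0 of the pathway genes. Deviations of libraries with the same letter correlated at 0.14, 0.11 and 0.09 across genes, and each library correlated best with its own letter, as a hint from the data and not from the design. The median log2 difference over all genes was -0.13 with all 6 libraries, -0.03 with edgeR, -0.02 with DESeq2 and 0.01 with the length correction. Of 16 alternatives per member, the sign changed in 5 for AKR1B1 and in 2 for FTL, and in 0 for the other 7. Both other filters and the replicate block left every member's log2 difference as it was, so they could not change a sign. Reads in the rows held limit AKR1C1 most, since it had as few as 14.5 normalised read counts in a library.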
